A study of Mus musculus with 3 samples.

Results

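In single-cell libraries, a barcode that draws a large share of its RNA from the mitochondrial genome is usually set aside before any biology is read. Here those barcodes are the subject: all barcodes with over 10% of their unique molecular identifiers (UMIs, 1 per captured RNA molecule) from genes whose symbols start with mt-. There were 210 of them among 14289 barcodes. They numbered 65 of 3482 in the Control library (1.87%, 95% Clopper-Pearson interval 1.44 to 2.37%), 54 of 5100 in hCD33M (1.06%, 0.796 to 1.38%) and 91 of 5707 in hCD33m (1.59%, 1.29 to 1.95%). The intervals cover counting error only, and with 1 library per genotype the shares were not tested between genotypes. The study's methods treat such barcodes as dying cells and remove them. The barcodes were chosen by their mitochondrial share alone, so that share is a description here, and all further values leave the mt- genes out of the counts and totals.

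The libraries were made from brain microglia, the resident macrophages of the brain, of mice 8 weeks old, sorted as CD11b+ CD45low Cx3cr1+ and loaded on a 10x Chromium 3' platform. Control mice were labelled wild type and male, and the labels do not say whether they carried Cre. The hCD33M mice (male) and hCD33m mice (female) carried a Rosa26-Stop fl/fl transgene for human CD33, an immunomodulatory receptor. It encoded the longer (hCD33M) or shorter (hCD33m) isoform. The CAG promoter drove it, and Cre recombinase knocked into the Cx3cr1 locus switched it on. In the study's assays hCD33M lowered phagocytosis and hCD33m raised it. The hCD33m line came from 1 embryonic stem cell clone, the background was C57BL/6, and the cells of each genotype were pooled from several mice, so the genotypes differ in sex as well as in transgene and none has a replicate. The files held 21529542, 28387611 and 32572995 UMIs in Control, hCD33M and hCD33m, the order in which values are given throughout. The methods describe perfusion with the transcription inhibitors Actinomycin D and Triptolide and storage with the translation inhibitor Anisomycin added, while another passage of the study names cold PBS for the perfusion.

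Mitochondria carry their own small genome, and its mRNAs are made and kept inside the organelle, which is enclosed by membranes. Messenger RNAs of nuclear genes are exported to the cytoplasm, where they are free, bound to ribosomes or held at the surface of the endoplasmic reticulum. Some long RNAs, Malat1 and Kcnq1ot1 among them, stay in the nucleus. A barcode can therefore be read as a mixture of organelle, nuclear and cytoplasmic RNA, and the libraries report the proportions of these pools but not the number of molecules a cell once held.

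The barcodes above the limit were shallow. Their median mitochondrial share was 16.6%, 15.7% and 16.6%, with maxima of 51.5%, 56.7% and 53.7%. Without mt- genes they held a median of 656, 845.5 and 832 UMIs, against 5365, 4971.5 and 5048.5 in the barcodes with at most 5% mt- UMIs. Their mt- UMIs, with medians of 164, 166 and 165 against 102, 107 and 94, differed far less from the barcodes at most 5% than their remaining UMIs did. A total under 1000 UMIs without mt- genes was found for 80.0%, 59.3% and 73.6% of the barcodes above the limit and for 2.16%, 2.70% and 4.27% of those at most 5%. Within the barcodes above the limit, the mitochondrial share and the remaining total were inversely related, with Spearman's rho of -0.66 in Control, -0.57 in hCD33M and -0.39 in hCD33m over 65, 54 and 91 barcodes, a relation built into the share because the total is its divisor. Just inside the limit, at 10 to 11%, lay 5, 6 and 11 barcodes with a median of 1487, 2746 and 1019 UMIs without mt- genes. Just outside it, at 9 to 10%, lay 8, 9 and 7 barcodes with 854, 1736 and 711. The barcodes just inside were thus the deeper ones in each library, over 5 to 11 barcodes a side.

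Each barcode above the limit was therefore set beside up to 3 barcodes of its own library with at most 5% mt- UMIs and nearly the same total without mt- genes. Such partners were found for 60, 50 and 89 barcodes (113, 146 and 264 partners). Their median totals were 690, 922 and 836 UMIs for the barcodes above the limit and 906, 962 and 849 for the partners. The remaining 5, 4 and 2 barcodes had no partner, since barcodes at most 5% started at 485, 484 and 497 UMIs without mt- genes. The partners were not typical barcodes. Their median mitochondrial share was 0.85%, 0.95% and 0.525%, below the 1.86%, 2.04% and 1.76% of all barcodes at most 5%. Both references are given below, because a shallow barcode with little mitochondrial RNA and a deep one answer different questions. The files of different libraries shared 25 barcode sequences, none of them above the limit and 1, 2 and 4 among the partners.

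**Figure D1:**
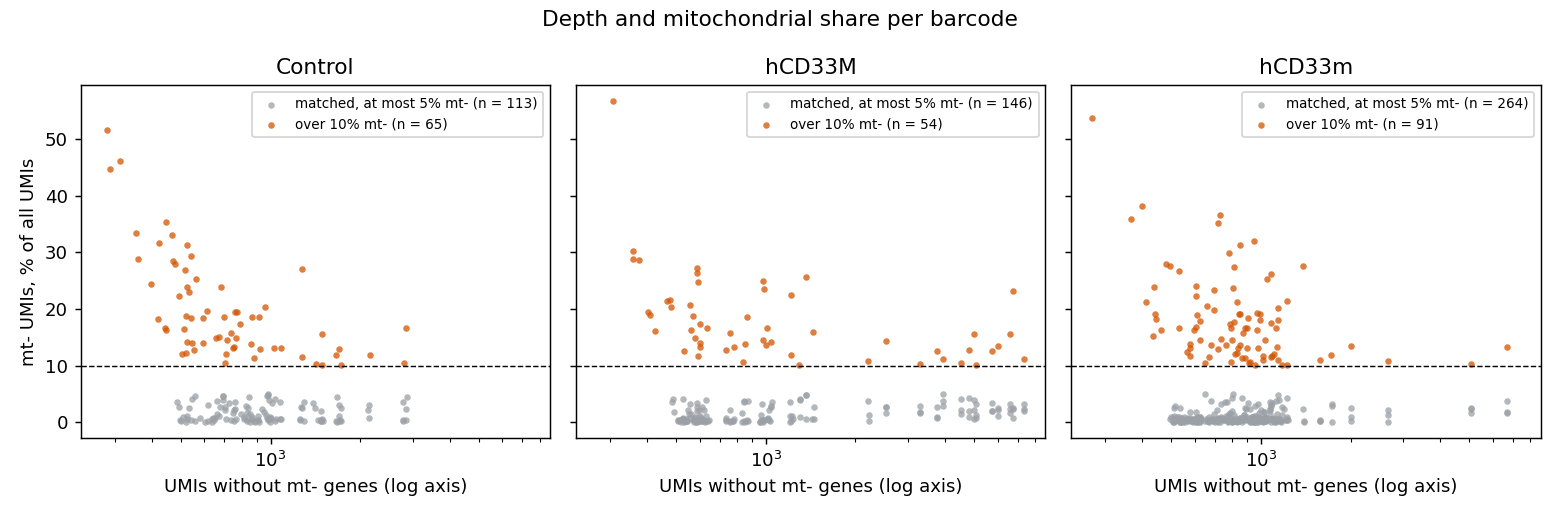
Each point is a barcode, with its UMIs without mt- genes on a log axis and its mt- UMIs as a percentage of all UMIs, for the barcodes over 10% (orange) and their partners at most 5% (grey) in each library. The dashed line is the 10% limit, and most orange points lie below 1000 UMIs. The shallowest of them, at 283, 308 and 272 UMIs, lie below the lowest total of a barcode at most 5%.

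The 13 mitochondrial mRNAs held somewhat different shares of the mt- UMIs above the limit. Among mt- UMIs, mt-Co3, a subunit of cytochrome c oxidase, held 20.5%, 21.1% and 22.1% in Control, hCD33M and hCD33m above the limit, against 17.4%, 17.7% and 17.7% in all barcodes at most 5%. mt-Co1, another subunit of the same enzyme, held 10.5%, 9.58% and 8.08% against 13.97%, 11.9% and 11.7%. These ratios came to 0.24, 0.26 and 0.32 on the log2 scale for mt-Co3 and -0.41, -0.31 and -0.53 for mt-Co1. mt-Nd4l, mt-Nd5 and mt-Nd4, subunits of complex I, also held smaller shares in each library, as did mt-Atp8, at 10 to 28 UMIs a library. mt-Nd2 held larger shares by 0.08, 0.13 and 0.19. mt-Cytb (11.3%, 10.7% and 11.6% against 11.02%, 10.8% and 11.04%) and mt-Nd1 (8.27%, 7.35% and 7.62% against 8.31%, 7.92% and 8.05%), markers of the mitochondrial pool together with mt-Co1, lay within 0.11 of equal shares. In the depth-matched partners mt-Co1 held 14.4%, 11.2% and 11.7%, above the barcodes over 10% in each library, and mt-Co3 held 17.9%, 18.9% and 19.5%, below them. No test was made of these shares, since the rule was built on the sum of the same genes.

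**Figure D2:**
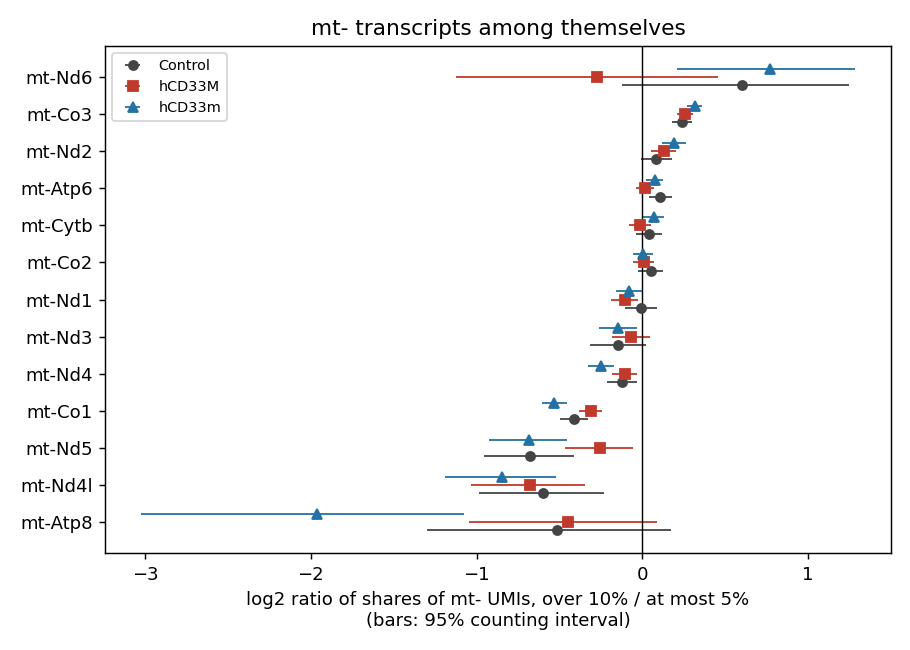
For each of the 13 mitochondrial mRNAs, the log2 ratio of its share of mt- UMIs in barcodes over 10% to its share in all barcodes at most 5%, per library, with 95% counting intervals. mt-Co3 lies to the right of 0 and mt-Co1, mt-Nd4, mt-Nd4l and mt-Nd5 to the left of 0 in each library.

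With the mitochondrial genes set aside, the barcodes above the limit were rich in the nuclear RNA Malat1. Malat1 (ENSMUSG00000092341.3, mm10 chromosome 19, 5795690-5802672, minus strand), a long noncoding RNA of nuclear speckles, made up a median of 8.20%, 10.1% and 13.5% of the UMIs of a barcode above the limit in Control, hCD33M and hCD33m. In their partners the medians were 3.09%, 3.48% and 3.29%, and in all barcodes at most 5% they were 3.78%, 3.95% and 4.20%. The lowest library median above the limit was thus above the highest of either reference. Within the libraries the spread was wide, with quartiles of 5.74 and 10.9% in Control, 5.03 and 14.4% in hCD33M and 9.81 and 16.5% in hCD33m. Over 10% Malat1 was reached by 22, 27 and 65 of the barcodes above the limit (33.9%, 50.0% and 71.4%) and by 13, 12 and 25 of the partners (11.5%, 8.22% and 9.47%).

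Transcripts of the cytosolic translation machinery stood the other way. Messenger RNAs of the 85 cytosolic ribosomal proteins found in the files made up a median of 1.54%, 1.52% and 1.22% of a barcode above the limit, 3.36%, 3.88% and 2.80% of a partner and 7.67%, 7.38% and 6.56% of all barcodes at most 5%. Translation factors, which carry transfer RNAs to the ribosome or start and extend the chain, had medians of 0.23%, 0.28% and 0.23% against 0.45%, 0.55% and 0.39% in the partners. In neither list did the library medians of the barcodes above the limit overlap those of the partners. Being both above the partners' median for Malat1 and below their median for ribosomal protein mRNAs described 56, 37 and 81 of the barcodes above the limit (86.2%, 68.5% and 89.0%), 37, 31 and 81 of the partners (32.7%, 21.2% and 30.7%) and 2.79%, 2.52% and 3.53% of all barcodes at most 5%.

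**Figure D3:**
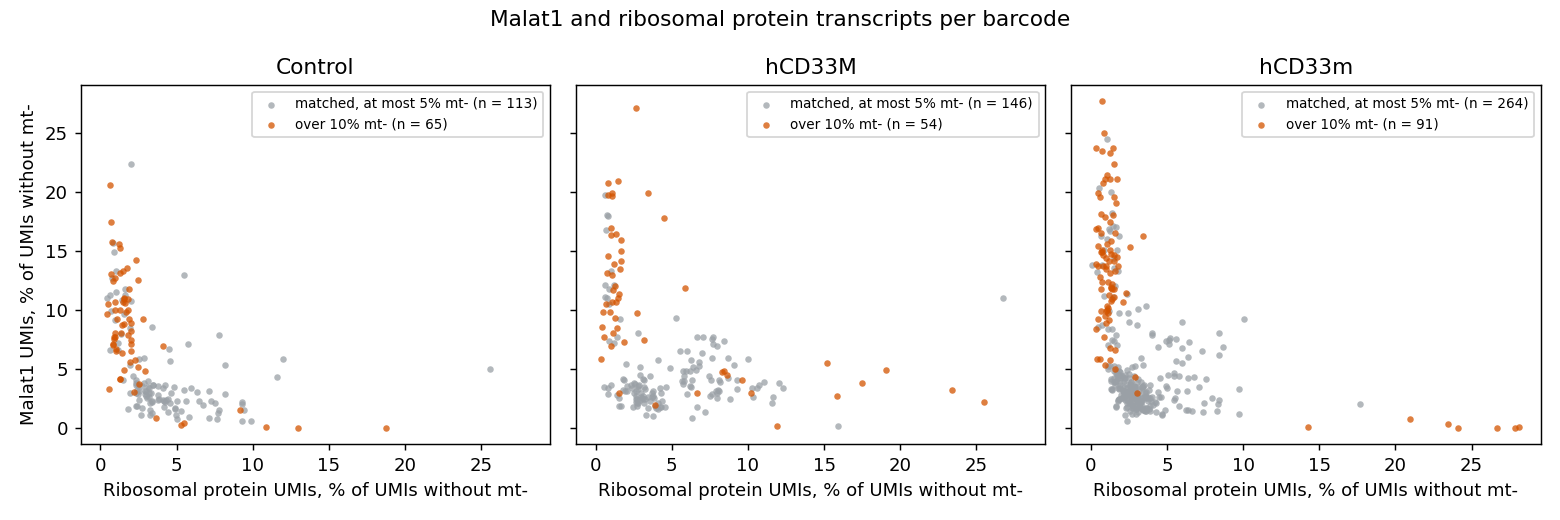
Malat1 against cytosolic ribosomal protein mRNAs, each as a percentage of the UMIs of a barcode without mt- genes, for barcodes over 10% mt- UMIs and for their partners in each library. The barcodes over 10% gather at high Malat1 and low ribosomal protein mRNA, and a smaller set of 6, 14 and 7 lies above 5% ribosomal protein mRNA.

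Other transcripts of the cytoplasm followed the ribosomal proteins. The cytoskeleton list, led by Actb (beta-actin) and Tmsb4x (thymosin beta 4, which binds actin monomers), had medians of 0.66%, 0.67% and 0.59% above the limit, 1.54%, 1.89% and 1.37% in the partners and 2.56%, 2.61% and 2.40% in all barcodes at most 5%. Transcripts of complement and lysosome, abundant in microglia and translated at the endoplasmic reticulum, had medians of 2.90%, 2.47% and 3.53% against 7.89%, 8.88% and 9.81% in the partners. The homeostatic microglia list, led by the colony stimulating factor receptor Csf1r, the fractalkine receptor Cx3cr1 and the selectin ligand Selplg, had medians of 2.18%, 2.01% and 2.08% against 3.80%, 3.83% and 3.85%. Taken over all depths, the barcodes above the limit lay below both references in every library in each of these lists. Control barcodes with at least 1000 UMIs went the other way for complement and lysosome and for homeostatic microglia, with values given below. Splicing and speckle factors, whose transcripts often keep introns and stay in the nucleus, had medians of 1.70%, 1.95% and 1.79% above the limit, 1.43%, 1.25% and 1.37% in the partners and 0.93%, 0.96% and 0.98% in all barcodes at most 5%, and so stood with Malat1.

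Loci that overlap ribosomal RNA depended on the reference. Gm42418 (ENSMUSG00000098178.1, mm10 chromosome 17, 39846958-39848788, plus strand), AY036118 and Lars2 collect reads from ribosomal RNA, so their counts are uncertain as gene expression. Together they had medians of 1.44%, 1.004% and 1.15% above the limit, 5.02%, 1.86% and 4.58% in the partners and 0.26%, 0.31% and 0.33% in all barcodes at most 5%. The barcodes above the limit were thus below their shallow partners and above the barcodes at most 5% as a whole, and the partners stood apart from both.

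The medians for transcripts of energy metabolism overlapped between the groups. Nuclear-encoded subunits of the respiratory chain, whose proteins work beside those of the mt- genes, had medians of 0.28%, 0.50% and 0.28% above the limit and 0.61%, 0.66% and 0.46% in the partners, lower in each library by a mean of -0.23 ± 0.088 percentage points (SD, n = 3 libraries) though the groups overlap. Medians for glycolytic enzymes, mitochondrial import and matrix proteins and mitochondrial ribosomal proteins overlapped as well. So did those of chromatin proteins, the ferritin genes, MHC class I and disease-associated microglia genes. Within each library the medians of glycolytic enzymes, the ferritin genes and MHC class I were still the lower ones above the limit. Overlap of the medians at this depth does not show that these pools were equal.

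Stress and cell death transcripts were few. Heat shock chaperones had medians of 0.19%, 0.20% and 0.13% above the limit against 0.22%, 0.21% and 0.24% in the partners, and transcripts of the integrated and unfolded protein stress responses 0.19%, 0.18% and 0.10% against 0.21%, 0.22% and 0.25%. Both medians were lower in each library, and at these depths such shares stand for only a few UMIs per barcode. Lists of apoptosis regulators, p53 targets, early response, inflammatory and interferon genes had overlapping medians. For the p53 targets, inflammatory and interferon genes the medians were 0 in both groups in each library, so their overlap cannot show whether these transcripts changed. Of the 19 apoptosis genes only Mcl1, which encodes a survival factor, passed the filter on low counts in the summed comparison. Mcl1 had 137, 200 and 103 CPM above the limit against 254, 263 and 379 in the partners, lower in each library without overlap of the groups (log2 fold change -1.01, edgeR adjusted p = 0.23). Of the 7 p53 targets none passed the filter, so a change in the p53 targets and in the other apoptosis genes was not detectable at this depth.

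**Figure D4:**
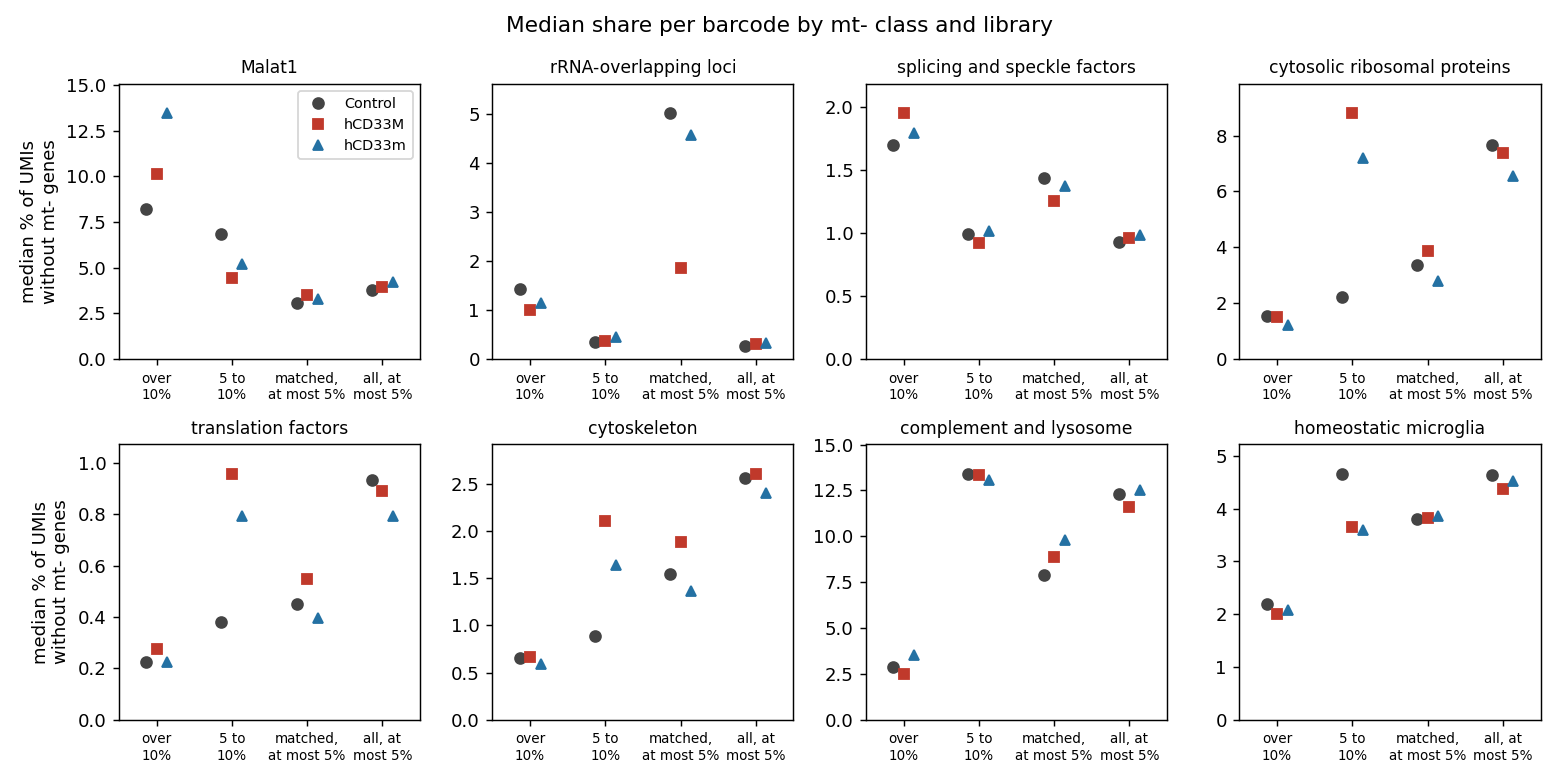
Median percentage of the UMIs of a barcode without mt- genes for Malat1 and for gene lists, in all barcodes at most 5%, in the shallow partners, in barcodes at 5 to 10% and in barcodes over 10% mt- UMIs, per library. Malat1 is highest and ribosomal protein mRNA lowest in the barcodes over 10% in each library.

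The barcodes above the limit were not all of 1 kind. Over 5% ribosomal protein mRNA was held by 6, 14 and 7 of them in Control, hCD33M and hCD33m (9.23%, 25.9% and 7.69%), against 30, 60 and 40 of the partners (26.5%, 41.1% and 15.2%). In these barcodes ribosomal protein mRNAs reached a median of 10.0%, 11.1% and 24.1%, and Malat1 was at 0.17%, 3.93% and 0.07%, while the remaining barcodes above the limit had Malat1 at 8.91%, 11.9% and 13.7%. Partners over the same 5% kept Malat1 at 2.28%, 4.03% and 4.28%. In Control and hCD33m the ribosome-rich barcodes thus almost lacked Malat1, and in hCD33M they did not.

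These barcodes were also the deep ones in hCD33M. Their median totals were 710, 4908.5 and 1144 UMIs without mt- genes, against 613, 600.5 and 813.5 for the rest. They held 7.53%, 66.5% and 20.3% of all UMIs of the barcodes above the limit, and 33.6%, 95.1% and 83.7% of the ribosomal protein UMIs. At least 3 UMIs of border macrophage markers were seen in 3, 4 and 2 of the 6, 14 and 7, and microglia markers were the leading list in 1, 11 and 4. This 5% value was chosen after the values were seen and serves as a description only.

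In the pooled comparison no single gene passed the test. UMIs were summed per library over the barcodes above the limit and over their partners, and the 6 sums were compared with library as a block. Of 813 genes tested, edgeR's quasi-likelihood test called 0 (0.0%) at an adjusted p under 0.05. The smallest adjusted p was 0.124, 122 genes had an unadjusted p under 0.05, and DESeq2 called 3 higher (Apoe, Cd63 and Lyz2) and 1 lower (Gm42418). The direction was higher in all 3 libraries for 145 genes (17.8%) and lower for 177 (21.8%), and the groups of 3 sums did not overlap for 48 genes higher (5.9%) and 92 lower (11.3%).

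In these sums Malat1 reached 83750, 68320 and 114159 CPM (UMIs scaled to a common total without mt- genes) above the limit and 44453, 43688 and 46513 in the partners. The sums did not overlap, and the log2 fold change was 0.95 with a standard error of 0.33 (edgeR adjusted p = 0.25). Kcnq1ot1, a nuclear antisense RNA that overlaps the Kcnq1 gene, stood at 1054, 420 and 894 CPM against 451, 256 and 500, higher within each library though the groups overlapped (log2 fold change 0.92, edgeR adjusted p = 0.17). The sources used here do not give how strand was counted, so reads of the overlapping gene cannot be told apart. Gm42418 stood at 12882, 6062 and 11898 CPM against 61192, 17227 and 36595 (log2 fold change -1.79, edgeR adjusted p = 0.12).

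Among the microglial and cytoplasmic transcripts in the same sums, Cx3cr1 had 3123, 1818 and 1444 CPM against 7451, 3509 and 3492, without overlap of the groups (log2 fold change -1.16, edgeR adjusted p = 0.16). Actb had 2284, 3856 and 2648 CPM against 7181, 6729 and 5725, again without overlap (log2 fold change -1.18, edgeR adjusted p = 0.16). Of the 24 homeostatic microglia genes tested, 9 were lower and 2 higher in all 3 libraries with a median log2 fold change of -0.29, beside 0.02 for all genes. Of the 12 cytoskeleton genes tested, 7 were lower and 0 higher with a median of -0.47. Of 20 splicing and speckle factors, 11 were higher and 1 lower with a median of 0.23. The ribosomal protein mRNAs were mixed in the sums, with 2 of 76 higher and 1 lower in all 3 libraries and a median of 0.24, opposite in sign to the fall in their per-barcode medians. Their pooled ratio on the log2 scale was -1.01 in Control but 0.67 in hCD33M and 0.59 in hCD33m, the libraries where the few ribosome-rich barcodes held 95.1% and 83.7% of these UMIs.

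Single genes passed the threshold once barcodes were brought to a common depth. Each barcode was thinned at random to 500 UMIs without mt- genes before summing, which left 50, 44 and 80 barcodes above the limit and 109, 143 and 262 partners, an alternative added after the data were seen. It changes the weight of each barcode, the barcodes that enter and the genes tested together, and which of these changes the calls was not tested. Of 270 genes tested, 16 were called higher (5.93%) and 26 lower (9.63%) by edgeR, of which 13 and 26 had the same direction in all 3 libraries. Over all 270 genes, 58 were higher (21.5%) and 70 lower (25.9%) in all 3 libraries. The genes named from this comparison were chosen after their values were seen. The call depended on the libraries: 0 genes were called without Control, 4 higher and 11 lower without hCD33M, and 7 and 7 without hCD33m. Without hCD33M, Malat1 had an edgeR adjusted p of 0.19. With barcodes kept to those led by microglia markers, 12 were called higher and 14 lower, 19 of the original 42 among them.

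Nuclear RNAs were among the genes that rose in the thinned barcodes. Malat1 had 90760, 105227 and 134650 CPM above the limit and 45927, 46000 and 47153 in the partners, with log2 ratios of 0.98, 1.19 and 1.51 in Control, hCD33M and hCD33m. Kcnq1ot1 had 1120, 818 and 1100 CPM against 587, 406 and 565, close to the same ratio in each library (0.93, 1.01 and 0.96). These were the only members of the nuclear long RNA list deep enough to be tested, of 8 found in the files, and both rose. Clk1, a kinase that phosphorylates splicing factors, rose from 385, 573 and 527 to 840, 909 and 925 CPM, the single gene called among 12 splicing and speckle factors tested, of which 8 were higher in all 3 libraries. The Clk1 call was lost in the second random draw (edgeR adjusted p = 0.33) and with microglia markers leading (0.23).

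The other genes that rose belonged to macrophage activation and lysosomes. Apoe, a lipid carrier abundant in border macrophages and raised by microglia in disease, had 4720, 6091 and 4125 CPM against 642, 811 and 1695 (log2 fold change 2.26, SE 0.24). The tetraspanins Cd63 and Cd9 rose by 1.17 and 0.92 and the lysozyme gene Lyz2 by 1.10, the latter with overlapping groups and almost all of it in hCD33M (1500 against 252 CPM, beside 280 against 257 in Control). Apoe and Cd9 were the genes called of 4 disease-associated microglia genes tested. Apoe came from few barcodes: in the unthinned data 7, 7 and 5 barcodes with at least 10 Apoe UMIs held 91.5%, 98.2% and 95.1% of all Apoe UMIs above the limit, and 3, 4 and 2 of them carried at least 3 UMIs of border macrophage markers. Kept to barcodes led by microglia markers, Apoe and Cd9 were not called (edgeR adjusted p = 0.24 and 0.073). Cd63 was still called there (edgeR adjusted p = 0.017), and Lyz2 had no value. Ttr, the choroid plexus transthyretin, was called from a single Control barcode, and Xist was present in hCD33m only, the female library.

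Gm42418 fell most, by 1.92 on the log2 scale, and Lars2, the other of these loci called, by 1.25. Microglial surface genes and actin fell as well. Tmem119, a microglial membrane protein, had 520, 818 and 875 CPM above the limit against 2018, 2112 and 2664 in the partners (log2 fold change -1.62, SE 0.26). Cx3cr1 fell from 7156, 3469 and 3756 to 2880, 1545 and 1675 CPM, and the purinergic receptor P2ry12 from 2220, 1972 and 1908 to 1560, 1182 and 675. In each of these 3 genes every sum above the limit lay below every sum of the partners. With Sparc and Olfml3, secreted proteins of microglia, they were the 5 of 21 homeostatic microglia genes that fell, and none rose. Kept to barcodes led by microglia markers, Tmem119 and Cx3cr1 were still called, and P2ry12, Sparc and Olfml3 were not (edgeR adjusted p = 0.068, 0.068 and 0.13). That marker list itself holds Tmem119, P2ry12, Sparc and Olfml3, so barcodes poor in these transcripts were less likely to be kept. A lost call there does not show that the fall was absent. Of the marker list of microglia 4 of 9 genes tested fell, all of them among these 5.

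Marcks, a membrane protein that binds actin and calmodulin, fell from 3156, 2867 and 3076 to 680, 1091 and 1350 CPM, and Actb from 6771, 6140 and 5664 to 2480, 2500 and 1675. Laptm5, a lysosomal membrane protein of blood cells, fell by 1.27 on the log2 scale, and the secreted protease inhibitor Cst3 by 0.81. Of 25 complement and lysosome genes tested, Cd63 and Lyz2 were called higher and Laptm5, Cst3 and Grn lower. Both shares are near those over all 270 genes, 5.93% higher and 9.63% lower. Of 36 ribosomal protein mRNAs tested, 13 were lower and 1 higher in all 3 libraries, and Rplp1, of the ribosomal stalk, fell by 0.70. Rplp1 was not called with microglia markers leading or when any 1 library was left out. Eef1a1, the elongation factor that brings transfer RNA to the ribosome, fell by 0.82. The early response gene Rhob and the chaperone Calr of the endoplasmic reticulum fell by 0.93 and 1.03. Calr was not called in the second draw (edgeR adjusted p = 0.052) or with microglia markers leading (0.15), and in the unthinned sums it was higher in Control by 0.64 and lower in hCD33m by 1.28.

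**Figure D5:**
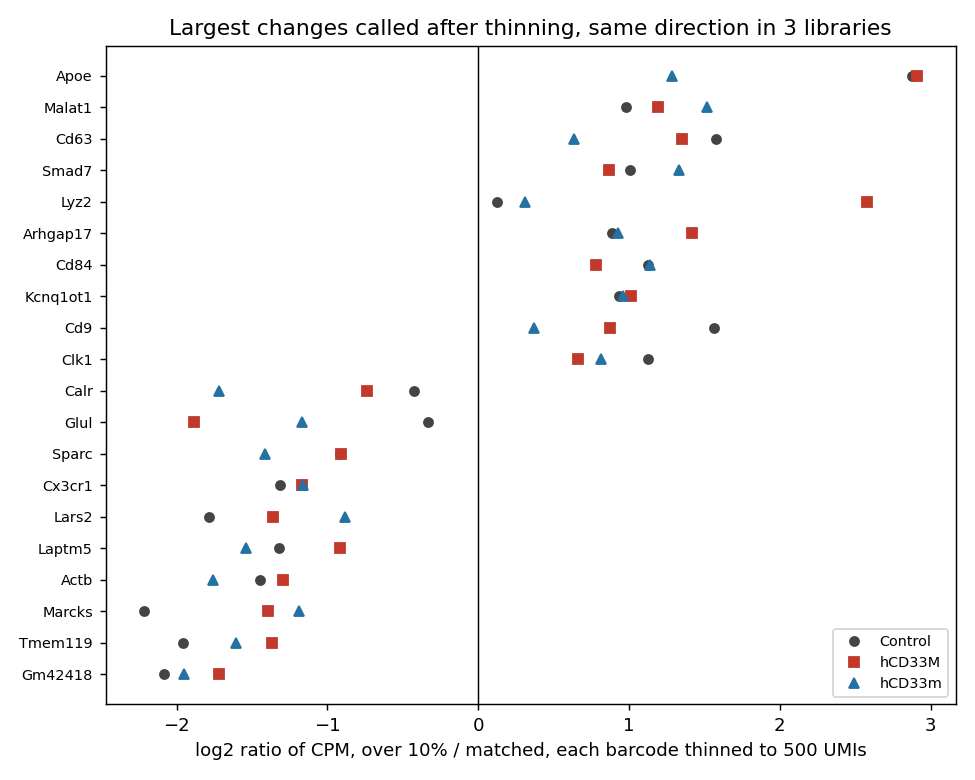
Log2 ratio of CPM in barcodes over 10% mt- UMIs to their partners after thinning every barcode to 500 UMIs, per library, for the 10 largest rises and the 10 largest falls among genes called in the same direction in all 3 libraries. Malat1, Kcnq1ot1 and Apoe lie to the right of 0, and Tmem119, Marcks, Actb, Cx3cr1 and Gm42418 to the left, in each library.

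The number of genes at equal depth was compared after thinning. Thinned to 500 UMIs, barcodes above the limit showed a median of 373, 366 and 360 genes and their partners 367, 377 and 371, a mean difference of -5.8 ± 9.7 genes (SD, n = 3 libraries; exact sign-flip permutation test, two-sided p = 0.5). The smallest p this test allows with 3 libraries is 0.25. Thinned to 1000 UMIs, which only 13, 22 and 24 of the barcodes above the limit reached, the medians were 589, 639 and 623 against 661, 683 and 673, lower in each library by a mean of -55.1 ± 14.5 genes (SD, n = 3 libraries; the same exact test, p = 0.25).

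Depth divided the barcodes above the limit. Those with under 1000 UMIs without mt- genes had complement and lysosome medians of 2.80%, 1.93% and 3.28%, and those with at least 1000 (13, 22 and 24 barcodes) had 18.9%, 9.42% and 5.75%. The deep ones had ribosomal protein medians of 1.46%, 7.47% and 1.25% and Malat1 medians of 7.45%, 4.83% and 13.7%. In Control and hCD33m the deep barcodes thus kept the low ribosomal protein and high Malat1 levels of the shallow ones. In hCD33M they were closer to the barcodes at most 5% as a whole. Partners with at least 1000 UMIs had complement and lysosome medians of 10.1%, 10.3% and 10.3%. Homeostatic microglia medians were 5.31%, 3.13% and 2.47% in the deep barcodes above the limit and 4.23%, 4.15% and 4.06% in these partners. In both lists the deep barcodes above the limit exceeded such partners in Control only.

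Against all barcodes at most 5%, without matching of depth, the nuclear long RNAs and the cytoskeleton list lay further apart. Of 828 genes tested, edgeR called 83 higher (10.0%) and 59 lower (7.13%) in the barcodes above the limit. Both nuclear long RNAs tested rose, as did 6 of 19 splicing and speckle factors, with none lower. Of 15 cytoskeleton genes, 9 fell and none rose, with a median log2 fold change of -1.06 beside -0.16 for all genes. Gm42418 rose here by 1.18 (edgeR adjusted p = 0.036), opposite in sign to the comparison with the shallow partners. The ribosomal protein list had a median of -0.53 with 0 of 77 genes called by edgeR. Other lists of cytoplasmic transcripts had few calls. Of 10 translation factors 0 were called, and of 26 complement and lysosome genes 1 was higher and 1 lower. Of 24 homeostatic microglia genes 2 were lower and 0 higher, near the share of all genes called lower. In this comparison the remaining depth moved with the mitochondrial share, with the medians given above, and its part in the result was not tested.

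The barcodes at 5 to 10% mt- UMIs were compared as the neighbouring class, which the limit did not choose. There were 83, 198 and 142 of them, deep enough for 3579 genes to be tested against partners matched in the same way. edgeR called 167 genes higher (4.67%) and 282 lower (7.88%). With TMM factors, which moved the median of all genes from -0.11 to 0.0025 on the log2 scale, the counts were 257 higher and 127 lower. The counts also rested on the libraries, with 26 higher and 4 lower without hCD33M and 399 and 702 without Control. The genes named from this comparison were chosen after their values were seen.

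The composition of this class differed between the libraries. Malat1 medians were 6.83%, 4.41% and 5.19%, and the ribosomal protein medians 2.21%, 8.80% and 7.20%, so that Control lay near the 8.20% and 1.54% found over the limit while the ribosomal protein medians of hCD33M and hCD33m lay near the 7.38% and 6.56% of barcodes at most 5%. The Malat1 medians exceeded those of all barcodes at most 5% in each library. In the sums against matched partners, Malat1 was not called (log2 fold change 0.26, edgeR adjusted p = 0.30), nor was Kcnq1ot1 (-0.22, edgeR adjusted p = 0.25). Of 4 nuclear long RNAs tested 1 was called higher, and of 22 splicing and speckle factors 0 were called. Complement and lysosome transcripts had medians of 13.4%, 13.3% and 13.1%, above the 2.90%, 2.47% and 3.53% found over the limit. In the sums 16 of 26 genes of that list were called higher and none lower, and so were all 5 disease-associated microglia genes tested, 19 of 83 ribosomal protein genes, both ferritin genes Fth1 and Ftl1 and 3 of 5 inflammatory genes, the chemokine gene Ccl4 among them (log2 fold change 1.80). Apoe had 4993, 8236 and 9438 CPM against 1386, 1447 and 1767 (log2 fold change 2.27). Of 24 homeostatic microglia genes 6 were called lower and 3 higher, and of 20 cytoskeleton genes 4 were called lower, among them the tubulin gene Tuba1a (-0.99).

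Border macrophage transcripts rose in this class. Mrc1, the mannose receptor, rose by 3.77 on the log2 scale, Pf4 by 3.45, F13a1 by 3.68 and Ms4a7 by 3.76, all 4 markers of that list that could be tested. Ttr had a larger fold, from 281 UMIs that were all in Control. At least 3 UMIs of border macrophage markers were seen in 9.64%, 12.6% and 7.75% of barcodes at 5 to 10%, against 2.73%, 2.02% and 2.81% at most 5%. With the comparison kept to barcodes whose leading marker list was microglia, 3345 genes were tested, of which 127 were called higher (3.8%) and 218 lower (6.52%). There the complement and lysosome list had 17 of 26 called higher and the disease-associated list 5 of 5. The inflammatory list stayed at 3 of 5 higher and the cytoskeleton list at 4 of 20 lower. Fewer calls were left elsewhere, with 12 of 83 ribosomal protein genes, 1 of 2 ferritin genes and 0 of 4 nuclear long RNAs higher. Of 24 homeostatic microglia genes 3 were lower and 3 higher, though some of these genes also served to choose the barcodes.

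Most barcodes above the limit carried microglial transcripts. Microglia markers were the leading list in 53, 46 and 88 of them (81.5%, 85.2% and 96.7%), and in 97.3%, 99.3% and 99.2% of the partners. Border macrophage markers reached 3 UMIs in 4, 5 and 2 barcodes (6.15%, 9.26% and 2.20%) and in 1.77%, 0.68% and 1.52% of the partners, with the summed list at 0.141%, 0.212% and 0.0355% of UMIs against 0.0098%, 0.0035% and 0.019%. Monocyte markers reached 3 UMIs in 2, 1 and 0 barcodes, and T and NK markers in 0, 1 and 0. Choroid and ependymal markers did so in 1 Control barcode, and neuron, neutrophil, endothelial, pericyte, erythroid and proliferation markers in none. B cell markers reached 3 UMIs in 5, 3 and 2 barcodes, astrocyte markers in 1, 2 and 3 and oligodendrocyte markers in 1, 0 and 1. Among the partners the B cell list reached 3 UMIs in 2, 18 and 6 barcodes, and among all barcodes at most 5%, which are deeper, in 39.7%, 36.8% and 30.8%. The sort took CD45low cells, and border macrophages usually carry more CD45 than microglia.

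Kept to barcodes with microglia as the leading list, the per-barcode medians above the limit stayed close to those of all barcodes. Malat1 was at 8.91%, 10.6% and 13.7%, and ribosomal protein mRNAs at 1.46%, 1.49% and 1.18%. The contrast in Malat1 and ribosomal protein mRNA was thus about as large among barcodes in which microglia markers exceeded every other marker list.

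Features of the transcripts that the rule did not use were compared in the same sums, in which no gene was called. Genes other than ribosomal protein genes were divided by the number of exons of their longest transcript into 3 groups of near-equal size with medians of 5, 10 and 22 exons. Their median log2 fold changes were -0.15, -0.05 and 0.09, and of 240 genes in each group 34, 39 and 63 were higher and 79, 64 and 32 lower in all 3 libraries. The same division by GC content gave medians of 0.02, -0.01 and -0.11 from low to high, by length of the 3' UTR 0.03, -0.04 and -0.09, and by transcript length -0.11, 0.01 and 0.02. The differences between these groups were not tested. The 207 genes whose protein starts with a hydrophobic stretch, as secreted and membrane proteins do, had a median of -0.05, and the 587 other protein-coding genes 0.03. That difference had no common direction over the libraries, at 0.29 in Control, 0.01 in hCD33M and -0.42 in hCD33m.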

How the data were processed

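The study made 3 libraries of sorted microglia with the 10x Chromium 3' kit. Per the study's methods the authors ran Cell Ranger v3.0.0 with STAR on mm10 and imported the matrices into Seurat. The deposited files hold counts, the UMIs per gene and barcode with no normalization. They keep genes detected in 3 or more cells and barcodes on which over 200 genes were seen. The gene annotation used by the authors is not stated in the sources read here. The study's later limits were over 8000 genes, over 10% mitochondrial UMIs and under 200 UMIs.

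Barcodes were classed here by their mt- share without any further filter, and doublets were not called. Each barcode over 10% was matched to up to 3 barcodes of its library with at most 5% mt- UMIs, without replacement, by the nearest log10 total without mt- genes and within 0.1. Barcodes at 5 to 10% were matched to the barcodes left. UMIs were summed per library and class, because barcodes are not replicates, and scaled to the total without mt- genes. Genes with an average level giving at least 10 UMIs in the smallest sum were tested with edgeR 4.0.16 (quasi-likelihood, library as block, Benjamini-Hochberg, 0.05) in R 4.3.3. The 3 libraries differ in genotype. With library as block, the p-values measure the spread over libraries of the difference between the classes, not of the levels themselves. The steps were tested on simulated data.

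Named genes were to be up to 12 called genes in each direction, the 13 mt- mRNAs and the 3 most abundant tested members of each list, with exceptions stated in the text. Some genes are not reported here. Members, lists and markers were chosen with earlier results of these data known. Gene positions came from GENCODE vM21 on GRCm38. Per-barcode medians, thinning and figures used Python 3.11.15 with scipy 1.17.1, pandas 2.3.3, numpy 2.4.6 and matplotlib 3.10.9. Alternatives covered scaling, DESeq2 1.42.0, filters, matching, limits, depth, cell type and leaving out each library. Thinning to 500 UMIs and the alternatives for the 5 to 10% class were added after the data were seen. Intervals cover counting error only.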

Additional observations from a re-analysis of the deposited data

Results flagged for a closer look

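Some of the lists whose summed UMIs moved in opposite directions in different libraries are given here. Values are log2 ratios of the barcodes over 10% to their partners, in the order Control, hCD33M and hCD33m. With 1 library per genotype the differences between libraries were not tested. Cytosolic ribosomal proteins had -1.01, 0.67 and 0.59, and translation factors -1.02, 0.30 and 0.19. Complement and lysosome transcripts had 0.26, -0.09 and -0.65. Transcripts of the integrated and unfolded protein stress responses had 0.78, -0.15 and -1.04, and heat shock chaperones 0.34, 0.06 and -0.46. Early response genes had -0.30, -0.50 and 0.26. Among further lists with opposite signs, MHC class I had 0.87, 0.56 and -0.20, the ferritin genes -0.23, 0.57 and 1.43, and the microglia markers 0.08, -0.44 and -1.01. For the ribosomal proteins, translation factors and complement and lysosome lists the per-barcode medians were lower above the limit in all 3 libraries, whatever the sign of these sums, and the 5 deepest barcodes above the limit held 21.3%, 33.6% and 20.7% of the UMIs.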

How the results depend on the processing

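In the pooled comparison of barcodes over 10%, where 0 genes were called, the counts of genes higher and lower were 3 and 1 with DESeq2, 22 and 13 with no filter, 5 and 2 with 1 partner per barcode, 83 and 59 without matching, 3 and 2 with matching on the total with mt- genes, 1 and 0 against barcodes at most 3%, 1 and 7 for barcodes over 15%, and 16 and 26 after thinning to 500 UMIs. Leaving out each library gave 0 to 2 higher and 0 to 1 lower. Without matching Gm42418 changed sign, to 1.18. The thinned comparison gave 12 and 14 with microglia markers leading, 2 and 9 with DESeq2 and 15 and 22 in the second draw, where 30 of the 42 genes remained called. With each library left out it gave 0 to 7 higher and 0 to 11 lower. None of the 42 genes was called in every alternative, and Actb, Gm42418, Laptm5, Marcks and Tmem119 failed only without Control.

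For the barcodes at 5 to 10% (167 higher and 282 lower), the counts were 257 and 127 with TMM factors, 257 and 131 with median-of-ratios factors, 67 and 61 with DESeq2, 345 and 423 with no filter, and 134 and 180 at 30 UMIs. Leaving out each library gave 26 to 399 higher and 4 to 702 lower. The libraries were the replicate block: without this block the counts were 0 and 0 for barcodes over 10%, 95 and 118 at 5 to 10%, and 6 and 10 after thinning. The difference in genes per barcode was -2.8 at 300 UMIs and -55.1 at 1000. Over all alternatives 353 list medians stayed within the spread between libraries and 41 did not. The 5, 4 and 2 barcodes without a partner and the few barcodes over 25% limit what the depth can show. The causes of these changes were not tested.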
